A study of Saccharomyces cerevisiae with 5 samples.

Results

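The genes described here are the G1/S cyclins, their transcription factors and the DNA replication machinery of budding yeast (Saccharomyces cerevisiae). They are 48 genes listed by name and role. Of these, 45 were named in the probe annotation of the array, and 34 had values in at least 2 hybridizations and entered the test, out of 4368 genes and unnamed features fitted in all. Values in all 3 hybridizations existed for 11 members. A value in 1 hybridization existed for 9, and these are given below without a test. CLB6 and RNR3 were on the array but carried no value, and MCM7, MCM10 and POL2 were not named in the annotation and were not analysed here.

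The slides were 2-colour arrays that set a recovering culture against its own starting point. Exponentially growing cells spent 16 h under 30 MPa at 25 °C. The Cy5 channel held polyA RNA of cells returned to 0.1 MPa for 2 h, and the Cy3 channel held RNA of cells harvested directly on decompression (0 h). Both channels had therefore been under pressure, and no sample without pressure was part of the comparison. Strain and medium are not given in the sources used here. Each of the 3 hybridizations used an independent biological sample per the labels, and the dyes ran the same way on all of them, so dye bias and change of a gene cannot be told apart. Hybridization 3 was scanned once, while hybridizations 1 and 2 each had a scan at high and another at low laser power.

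In budding yeast, entry into the cell cycle begins when the cyclin Cln3 with the kinase Cdc28 relieves the repression of SBF (Swi4 with Swi6) and MBF (Mbp1 with Swi6). These factors switch on CLN1 and CLN2, the S phase cyclins CLB5 and CLB6, and many genes of DNA synthesis, whose transcripts rise and fall once per cycle. Origins are marked by the origin recognition complex, receive the Mcm helicase with the help of Cdc6 in G1, and fire after Cdc7 with Dbf4 and the S phase cyclins act on them.

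Values are log2 ratios of recovery over decompressed cells. The labels do not state the direction; it was taken as likely because recovery is the Cy5 and first-named channel of every array, and every sign below would turn with it. A gene was called when its mean ratio differed from 0 at a limma p below 0.05 after Benjamini-Hochberg adjustment over all 4368. An array of a whole culture cannot tell a changed share of cells in a cycle phase from a changed amount of transcript per cell. The number of values limits the precision: features with a value made up 57.8% to 79.0% of 6336 in the scans of hybridizations 1 and 2, and 33.0% in hybridization 3. Of the 45 members on the array, 11 carried a value in hybridization 3. A member with 2 values had a standard error of 0.32 and a member with 3 values an error of 0.26, whatever its own spread, because the fit pooled the variance over all genes. PRI2 (SD 0.011) and ORC1 (SD 0.69) thus have the same standard error.

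Most of these genes did not differ detectably between the 2 h recovery and the decompressed cells. Only DUT1 was called, higher in recovery, and none was called lower (limma). That is 1 of 34 fitted members, against 11.9% of all fitted genes and features called higher and 12.7% called lower. At an unadjusted p under 0.05 there were 2 of 34 members higher, DUT1 and ORC2, and 0 lower. Over everything fitted, 758 of 4368 were higher and 774 lower at that threshold. The median of the 34 means was 0.098, against -0.0068 over everything fitted, and 21 of the 34 (61.8%) lay above 0, against 49.5%. A mean at least 2-fold away from 0 in either direction was found for 1 of 34 members (2.94%) and for 11.7% of everything fitted. For 24 of the 34 the 95% interval lay wholly between -1 and 1, so that a 2-fold change in either direction fell outside it. That held for 52.1% of everything fitted.

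**Figure D1:**
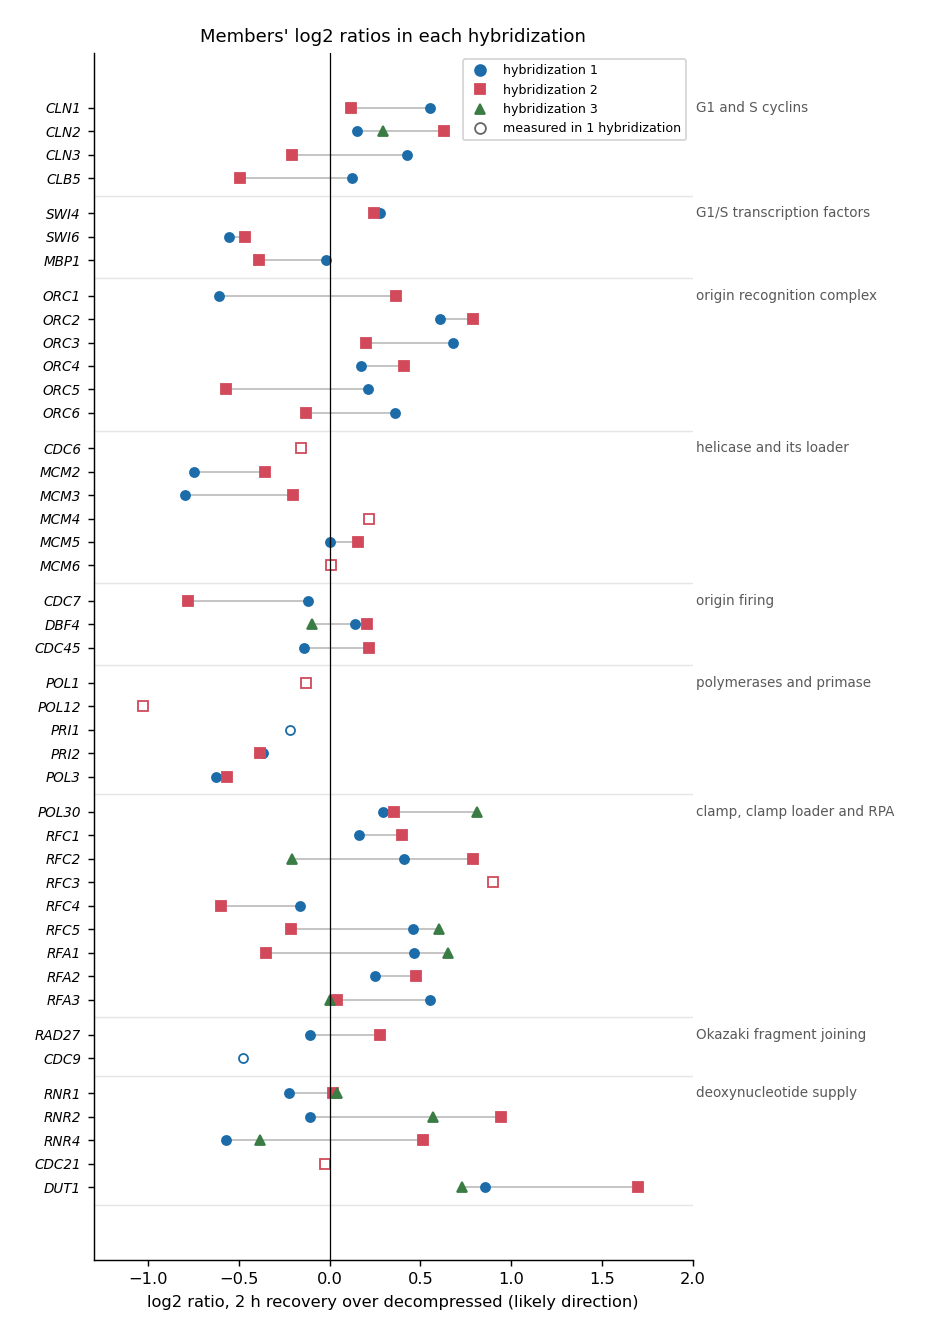
Log2 ratio of recovery over decompressed cells (x axis) for the 43 members with any value, grouped by role; each point is a hybridization and open symbols are members measured once. Points of many members fall on both sides of 0, while DUT1 lies at 0.73 or above in all 3 hybridizations.

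Among the cyclins, none of the 4 fitted was called. CLN3, the cyclin that starts the G1/S programme, stood at 0.43 and -0.21 in hybridizations 1 and 2. CLN2, which with CLN1 drives passage through Start and budding, stood at 0.15, 0.63 and 0.30 in hybridizations 1, 2 and 3. All 3 values of CLN2 were above 0, and its mean of 0.36 ± 0.24 (SD, n = 3) had an interval from -0.15 to 0.87 (limma adjusted p = 0.337). Its paralog CLN1 stood at 0.55 and 0.12, with a mean of 0.34. Which of the pair had the higher ratio differed between hybridizations: CLN1 minus CLN2 was 0.40 in hybridization 1 and -0.51 in hybridization 2. CLB5, the main cyclin of S phase, stood at 0.12 and -0.49.

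CLB5 lies next to the mitotic cyclin gene CLB2 in the genome, with the ends of both genes facing each other. CLB2, which is no member, rose to 1.04 ± 0.15 (SD, n = 3, limma adjusted p = 0.000833), and lost its call without hybridization 1 (0.96, adjusted p = 0.0647). The ratio of CLB2 exceeded that of CLB5 by 1.09 in hybridization 1 and by 1.48 in hybridization 2, a mean difference of 1.29 ± 0.28 (SD, n = 2). With 2 hybridizations an exact sign-flip test cannot go below p = 0.5, and no other test of this difference was run.

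The transcription factor genes were not called either. SWI4, the DNA-binding subunit of SBF, stood at 0.28 and 0.25. The high power scans gave SWI4 higher ratios than the low power scans, by 0.68 in hybridization 1 and 0.45 in hybridization 2, and with the low power scans alone its mean was -0.021. SWI6, the subunit shared by SBF and MBF, stood at -0.56 and -0.46, with a mean of -0.51 and an interval from -1.14 to 0.11 (limma adjusted p = 0.251). MBP1, the DNA-binding subunit of MBF, stood at -0.022 and -0.39.

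All 6 genes of the origin recognition complex, which binds origins throughout the cycle, had values in hybridizations 1 and 2 and none in hybridization 3. ORC2 was highest, at 0.61 and 0.79. Its mean of 0.70 ± 0.13 (SD, n = 2) had an interval from 0.074 to 1.32. ORC2 did not pass after adjustment (limma adjusted p = 0.0939). ORC3 stood at 0.68 and 0.20 and ORC4 at 0.17 and 0.41, so ORC2, ORC3 and ORC4 were above 0 in both hybridizations. ORC1, a subunit that binds ATP, stood at -0.61 and 0.37. ORC5 stood at 0.21 and -0.57 and ORC6 at 0.36 and -0.13, and these 3 genes changed sign between hybridizations. The median of the 6 means was 0.20.

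The helicase genes lay on both sides of 0 and none was called. MCM2 stood at -0.74 and -0.36, with a mean of -0.55 and an interval from -1.18 to 0.074 (limma adjusted p = 0.209). MCM3 stood at -0.80 and -0.20, a mean of -0.50. In hybridization 1 the high power scan gave MCM3 a ratio 0.81 above that of the low power scan, the widest gap of any member. MCM5 stood at 0.0049 and 0.15, and its scans of hybridization 2 differed by -0.70 (high minus low). MCM4 and MCM6 were measured only in hybridization 2, at 0.22 and 0.0075. The median of the 3 fitted helicase genes, -0.50, was -0.18 with the length trend removed and -0.083 with 16 groups of features centred as well. CDC6, which loads the helicase, was also measured only there, at -0.15.

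Of the genes that fire origins, CDC7, the kinase subunit, stood at -0.12 and -0.78. DBF4, its regulatory subunit, stood at 0.14, 0.21 and -0.095 in hybridizations 1, 2 and 3, with a mean of 0.084 ± 0.16 (SD, n = 3) and an interval from -0.43 to 0.59. CDC45, part of the active helicase, stood at -0.14 and 0.22. No gene of this group was called, and CDC7 alone lay below 0 in every hybridization measured.

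Every polymerase and primase gene with a value lay below 0, and none was called. The median of the 2 fitted genes, -0.49, was -0.23 with the length trend removed and -0.041 with 16 groups of features centred as well. POL3, the catalytic subunit of DNA polymerase delta, stood at -0.63 and -0.56, with no value in either low power scan. Its mean of -0.60 was the lowest of the fitted members, with an interval from -1.22 to 0.029 (limma adjusted p = 0.168). PRI2, a primase subunit, stood at -0.37 and -0.38, and its mean turned to 0.083 with features centred in 16 groups, 0.15 with 48 groups and 0.23 with 16 groups and the length trend removed (not called in any). The other 3 were measured once. POL12, a subunit of DNA polymerase alpha, was at -1.03 in hybridization 2, POL1, the catalytic subunit of that enzyme, at -0.13 in hybridization 2, and PRI1 at -0.22 in hybridization 1.

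The sliding clamp, its loader and RPA, the complex that coats single-stranded DNA, lay mostly above 0. Of 8 fitted, 7 had a mean above 0 and none was called, with a median of 0.28. POL30, which encodes the clamp PCNA, stood at 0.29, 0.35 and 0.81. Its mean of 0.49 ± 0.28 (SD, n = 3) had an interval from -0.025 to 1.00 (limma adjusted p = 0.169). The exception was the loader gene RFC4, at -0.17 and -0.60.

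The other loader genes did not move together in every hybridization. RFC2 stood at 0.41, 0.79 and -0.20, and RFC5 at 0.46, -0.21 and 0.60. RFC1, the large subunit, stood at 0.16 and 0.40 and has 2 features on the array with identical deposited values. RFC3, measured only in hybridization 2, was at 0.90. RFC5 and POL30 are neighbours in the genome with their ends facing each other, and RFC5 minus POL30 was 0.17, -0.57 and -0.21 in the 3 hybridizations.

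The RPA genes also differed among themselves. RFA1 stood at 0.47, -0.35 and 0.65. RFA2 stood at 0.25 and 0.48, and RFA3 at 0.56, 0.040 and 0.0032. RAD27, the nuclease that trims Okazaki fragments, stood at -0.11 and 0.28, and its scans of hybridization 2 differed by 0.77 (high minus low). CDC9, the ligase that joins the fragments, was measured in hybridization 1 alone, at -0.48.

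The member with the highest ratio belongs to deoxynucleotide supply. DUT1 (YBR252W) encodes the dUTPase, which removes dUTP and makes the precursor of dTTP. It stood at 0.86, 1.70 and 0.73 in hybridizations 1, 2 and 3, so all 3 hybridizations were higher in recovery, hybridization 2 the most. Its mean was 1.10 ± 0.53 (SD, n = 3), a 2.14-fold difference with an interval of 0.59 to 1.61 on the log2 scale (limma adjusted p = 0.000384). High and low power scans gave DUT1 almost the same ratios, 0.85 and 0.86 in hybridization 1 and 1.71 and 1.69 in hybridization 2. In the fit of genes measured in all 3 hybridizations, where 15.1% of 1891 were called higher, DUT1 was called as well (adjusted p = 0.00769). Leaving out hybridization 2 put DUT1 at 0.80, short of the threshold (adjusted p = 0.0921). It fell short as well after the trend of the ratio on gene length was removed, at 0.74 (adjusted p = 0.054).

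The subunit genes of ribonucleotide reductase, which makes deoxynucleotides, were not called. RNR1, the large subunit whose transcript follows the cell cycle, stood at -0.22, 0.021 and 0.043. Its mean of -0.054 ± 0.15 (SD, n = 3) had an interval from -0.56 to 0.46. RNR2 stood at -0.11, 0.95 and 0.57, and RNR4 at -0.57, 0.52 and -0.38. Both encode small subunits of the enzyme. In each of the 3 hybridizations RNR2 exceeded RNR4, by 0.46, 0.43 and 0.95, a mean of 0.61 ± 0.29 (SD, n = 3, exact two-sided sign-flip p = 0.25, the smallest that 3 hybridizations allow). CDC21, the thymidylate synthase, was measured only in hybridization 2, at -0.027.

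**Figure D2:**
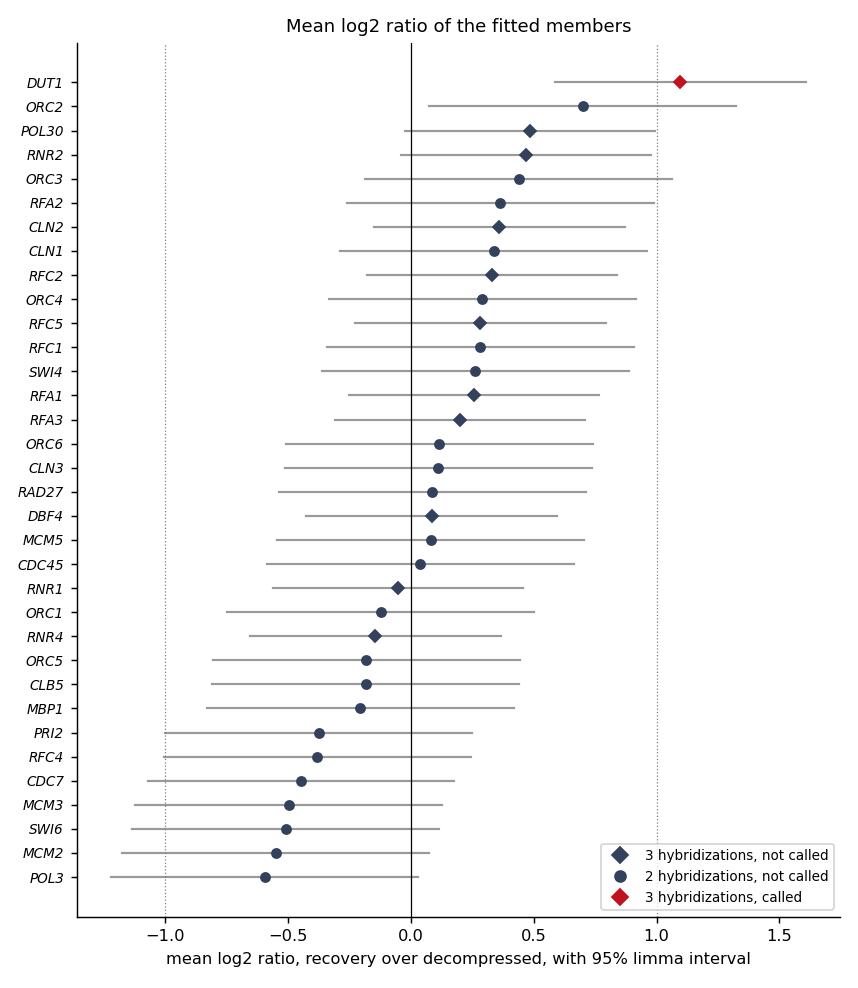
Mean log2 ratio (x axis) of the 34 fitted members with its 95% interval from limma, in order of the mean; diamonds were measured in 3 hybridizations and circles in 2, and dotted lines mark a 2-fold change. DUT1 at 1.10 is the called member, and the means run down to POL3 at -0.60.

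The order of the means therefore ran from DUT1 at 1.10 over ORC2 at 0.70, POL30 at 0.49 and RNR2 at 0.47 to MCM2 at -0.55 and POL3 at -0.60. Apart from DUT1 and ORC2 every interval included 0, and the intervals of neighbours in this order overlapped. Between hybridizations 1 and 2 the sign was the same for 22 of 34 members (64.7%), against 73.0% of 4213 genes and features. As a description of points that share their arrays, Pearson r between these hybridizations was 0.39 over the 34 members and 0.69 over all 4213.

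Gene length moved with the ratios of these genes as it did with all others. Short genes had higher ratios in recovery than long ones, with Spearman rho = -0.42 over the 34 members and -0.38 over 4170 fitted genes with a length, as a description over points that share the arrays. Of the 10 members of up to 1200 bases 8 lay above 0, with a median of 0.31, beside 0.20 for all genes of that length. Of the 13 members over 1200 and up to 2000 bases 9 lay above 0, with a median of 0.12 beside -0.13. Of the 11 members over 2000 bases 4 lay above 0, with a median of -0.12 beside -0.27. In each of these length classes the members' median was above that of all genes.

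DUT1, at 444 bases, is among the shortest members, and POL3, at 3294 bases, is the longest fitted. After removal of the length trend within each hybridization POL3 was at -0.24 and MCM2 at -0.26. ORC2 (1863 bases) was then at 0.90 and passed the test (limma adjusted p = 0.0329), the only one of 34 members called in that fit. Over everything fitted, 345 of 4170 were called higher there and 392 lower. The part of gene length in these ratios was not tested further.

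**Figure D3:**
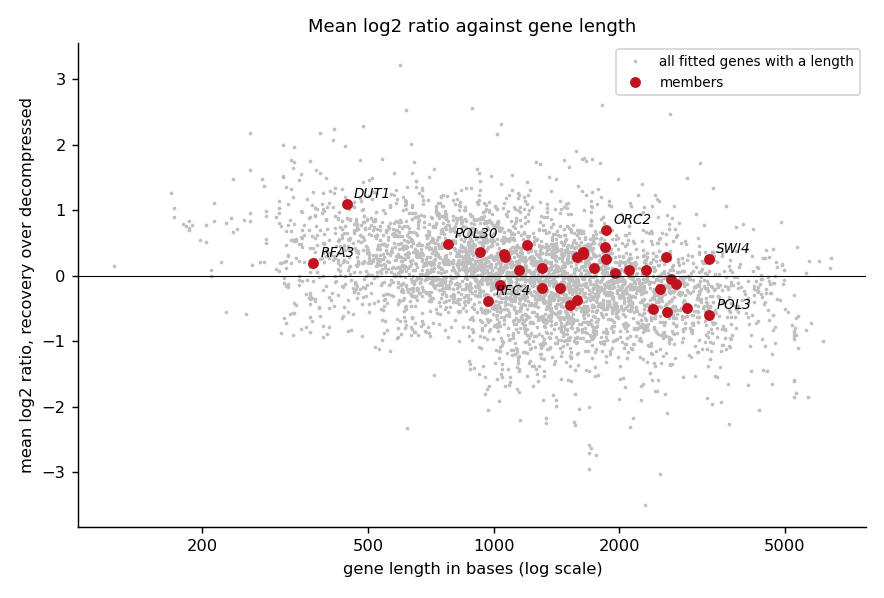
Mean log2 ratio (y axis) against gene length in bases (x axis, log scale) for 4170 fitted genes (grey) and the 34 fitted members (red). The members follow the downward course of the other genes, from DUT1 at 444 bases to POL3 at 3294 bases.

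Centring by feature position changed some calls. With the median of each of 16 groups of feature numbers subtracted, CLN1 was at 0.79 (limma adjusted p = 0.0223), ORC2 at 0.73 (adjusted p = 0.0375) and POL3 at -0.67 (adjusted p = 0.0464), and DUT1 kept its call at 1.03. With the length trend removed as well, CLN1, SWI4, ORC2, MCM5 and DUT1 were called higher, at 0.95, 0.65, 0.93, 0.63 and 0.68, and POL3 was not. CLN1 and POL3 were called only under corrections by position. The order of the features carries gene length with it, since the last 2 digits of the feature number correlated with length (Spearman rho = 0.69 over 5293 features), so the corrections are not independent of each other.

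**Figure D4:**
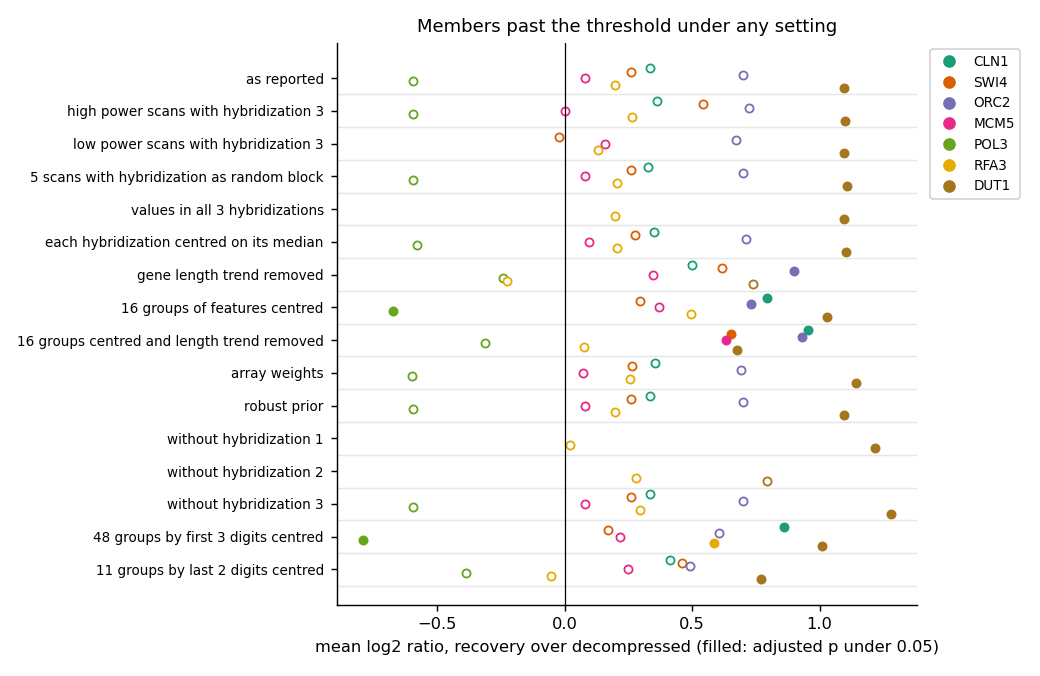
Mean log2 ratio (x axis) under each setting (y axis) for the 7 members with an adjusted p under 0.05 in any of them; filled symbols passed. DUT1 passed in 13 of 15 alternatives and kept its sign in all, between 0.68 and 1.28. The alternatives share the same hybridizations and are not independent, and the robust prior gave the same counts as the reported fit.

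Other genes of the G1/S programme that are not members moved in both directions. Of 26 listed, 20 were fitted, 4 rose (20%, beside 11.9% of everything fitted) and 2 fell (10%, beside 12.7%), at a median of 0.11. PCL9, a cyclin of the kinase Pho85 expressed as cells leave mitosis, rose to 1.62 ± 0.24 (SD, n = 3, limma adjusted p = 3.16e-08). NRM1, the co-repressor that shuts off MBF targets after S phase begins, rose to 1.22 (hybridizations at 1.70 and 0.74). CDC53, the cullin of the SCF ubiquitin ligase that removes G1 inhibitors, fell to -1.15 (-1.05 and -1.26), and with the high power scans alone it had too few values to be fitted. BCK2, which promotes G1/S transcription apart from Cln3, fell to -0.96 (-0.54 and -1.38). It was not called after removal of the length trend alone (-0.67, limma adjusted p = 0.146), but was with 16 groups centred as well (-0.63, adjusted p = 0.0338). It was not called with the high power scans (-0.78, adjusted p = 0.0624) or with features centred by the last 2 digits of their number (-0.76, adjusted p = 0.0651).

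Of 34 other replisome and origin firing genes, 26 were fitted, at a median of 0.16. At an unadjusted limma p under 0.05, 3 were higher and 1 lower, beside 758 and 774 of 4368 over everything fitted. After adjustment 3 rose (11.5%, near the 11.9% of everything fitted) and none fell (0%, beside 12.7%). RNH203, a subunit of ribonuclease H2, rose to 1.97 ± 0.30 (SD, n = 3). DPB11, an essential origin firing factor, rose to 1.05 (0.82 and 1.27). PSF3, a subunit of the GINS complex of the helicase, rose to 0.83 (0.99 and 0.68), and missed the threshold with the length trend removed, alone or with the 16 groups centred, with the low power scans and with features centred by the last 2 digits (0.53 to 0.79).

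Among regulators of deoxynucleotides and the S phase checkpoint 10 of 18 were fitted, at a median of -0.035. At an unadjusted limma p under 0.05, 1 was higher and 1 lower, beside 758 and 774 of 4368 over everything fitted. After adjustment 1 rose (10%, near the 11.9% of everything fitted) and none fell (0%, beside 12.7%). This was DIF1, which directs the small reductase subunits into the nucleus, at 1.11 (0.73 and 1.5015). It was not called with the length trend alone removed (0.66, limma adjusted p = 0.149). With 16 groups centred as well it was called (0.61, adjusted p = 0.0468). In this list 1 gene was called lower in 6 alternatives, among them the high power scans and median centring. In these 2 it was 1 of 10, beside 506 of 4256 and 577 of 4368 over everything fitted. With 48 groups of features centred, 3 of 10 were called higher, beside 626 of 4368 over everything fitted. Of 9 cohesion genes 5 were fitted, at a median of -0.44. SMC1, a core cohesin subunit, fell to -1.07 (-1.38 and -0.77). No other gene of the list was called, so 20% were lower (beside 12.7% of everything fitted) and 0% higher (beside 11.9%). The fitted cohesion genes are long (median 3678 bases). The list's median was -0.093 with the length trend removed, -0.026 with 16 groups centred as well and -0.038 with features centred by the last 2 digits. SMC1 was not called with the length trend alone removed (-0.69, limma adjusted p = 0.0872) or with the 5 scans fitted together (-1.06, adjusted p = 0.0735). With the length trend removed and 16 groups centred it was called (-0.64, adjusted p = 0.0291).

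Histone genes, which are also expressed in S phase, had higher values. Of 7 fitted 6 rose (limma, 85.7%, beside 11.9% of everything fitted). None fell (0%, beside 12.7%), and 0 were lower at an unadjusted p under 0.05, beside 774 of 4368 over everything fitted. The list's median was 1.05, which only DUT1 among the members exceeded. The histone medians were 1.26, 1.53 and 0.91 in hybridizations 1, 2 and 3, and those of the members were 0.15, 0.14 and 0.30. HHF1 rose to 1.99 ± 0.08 (SD, n = 3) and HHF2 to 1.498 ± 0.45; both encode histone H4 and their signals can mix on an array. HTB2, measured in hybridizations 2 and 3, rose to 1.485, and HHT1 rose to 1.05 ± 0.63. HHT2, the fitted histone gene that was not called, stood at 0.30, 0.34 and 0.076 (mean 0.24, limma adjusted p = 0.563). Histone genes are short (median 396 bases, members 1640). After removal of the length trend their median was 0.67 and 3 of 7 were called higher, beside 345 of 4170 over everything fitted. HHT1 was not among the genes called there (limma adjusted p = 0.0758), but was called with 16 groups centred as well (0.79, adjusted p = 0.000733). It was not called when hybridization 1 (adjusted p = 0.0815) or 2 (adjusted p = 0.108) was left out. Without hybridizations 1, 2 and 3 in turn, 3 of 7, 2 of 6 and 5 of 6 histone genes were called higher. Over everything fitted it was 129 of 2004, 176 of 1933 and 510 of 4213.

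Genes of the mitotic Clb2 cluster, which peak at the other end of the cycle, had a median of 0.57. Of 15 fitted, 5 were called higher (33.3%, beside 11.9% of everything fitted) and none lower (0%, beside 12.7%). At an unadjusted limma p under 0.05, 7 were higher and 1 lower, beside 758 and 774 of 4368 over everything fitted. With array weights 5 were called higher and 1 lower, beside 588 and 610 of 4368. CLB1 rose to 1.47 ± 0.26 (SD, n = 3), HST3 to 1.09 (1.47 and 0.71 in hybridizations 2 and 3), CLB2 to 1.04 and ALK1 to 0.97 ± 0.06 (SD, n = 3). ALK1 lost its call without hybridization 1 (adjusted p = 0.0626), and HST3 missed it with features centred in 16 or 48 groups (0.63 and 0.61). The median length of this cluster was 2121 bases. With the length trend removed 6 of 15 were called higher, beside 345 of 4170 over everything fitted. Without hybridizations 1, 2 and 3 in turn, 2 of 7, 3 of 6 and 4 of 14 were called higher. The counts over everything fitted were 129 of 2004, 176 of 1933 and 510 of 4213. Whether these lists differ from the members was not tested; the values stand side by side.

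**Figure D5:**
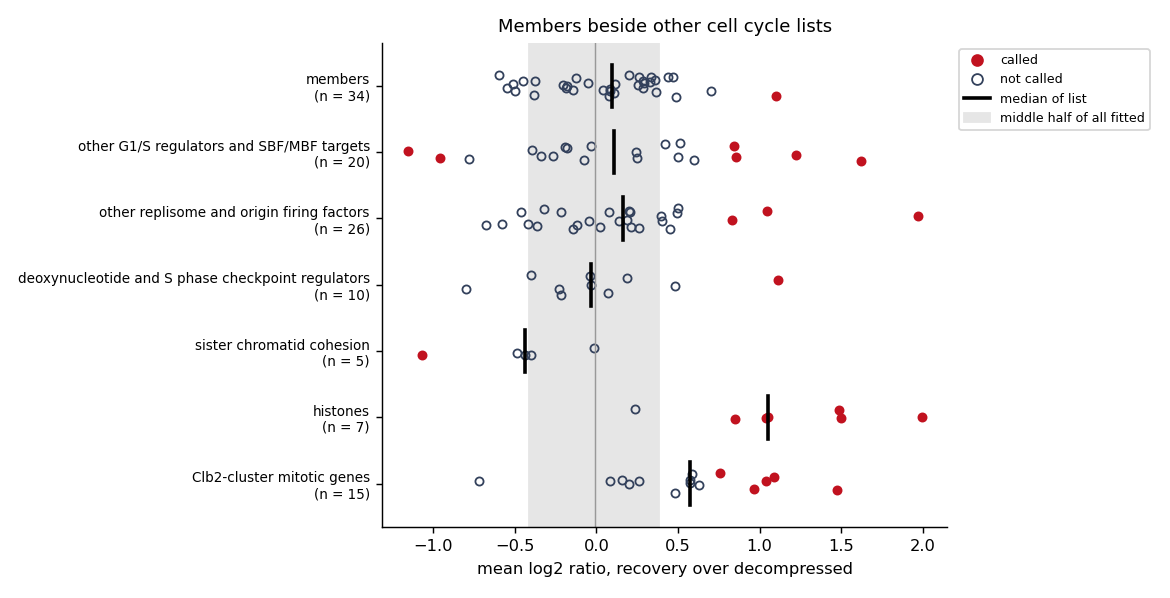
Mean log2 ratio (x axis) of each fitted gene by list (y axis), with called genes filled, the list's median as a bar, and the range between the quartiles of everything fitted shaded (-0.41 to 0.39). Members cluster around 0.098, histone genes around 1.05 and the Clb2 cluster around 0.57.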

How the data were processed

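The values deposited by the authors are log2 ratios, 1 for each feature in each scan. LOWESS normalization used spots whose flag was 0, per the labels' protocols. That the log base is 2 follows from the lowest value (-6.64), the log2 of 0.01. The direction, the software and the genome build are not given in the sources used here.

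Features were named through the platform annotation (5297 with 1 symbol, 0 with several, 1039 with none), and 5293 were found in RefSeq's gene table (assembly R64), from which gene lengths were taken (96.3% of protein-coding lengths are multiples of 3). Features of a gene were averaged, then the scans of a hybridization. Each gene's mean was tested against 0 with limma 3.58.1 (R 4.3.3), two-sided, over 4368 genes and features with at least 2 hybridizations, without pseudocount or filter. The prior degrees of freedom were infinite there, and 12.2 among genes with all 3 hybridizations. The limma fit and the removal of the length trend were tried on simulated data, and the averaging and group centring were not. Members were shown with their values in every hybridization when called, measured in all 3, or highest or lowest of their role; other lists name up to 4 called genes. Members and lists were chosen with earlier results of these data known, and neighbour pairs after values were seen. Alternatives numbered 15: 13 planned, 2 added after seeing the data (48 groups by the first 3 digits and 11 by the last 2 digits of the feature number). No sequences were used here.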

Additional observations from a re-analysis of the deposited data

How the results depend on the processing

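The count of 1 member called higher became 3 with features centred in 16 groups, 5 with the length trend removed as well, 3 with 48 groups, and 0 to 1 when 1 hybridization was left out (0 without hybridization 2). Over everything fitted, 518 of 4368 were called higher as reported and 593 of 4368 with 16 groups. With the length trend removed as well it was 575 of 4170, and with 48 groups 626 of 4368. The count of 0 members called lower became 1 (POL3) with 16 groups and 1 with 48 groups. Lower calls over everything fitted numbered 554 as reported, 615 with 16 groups and 632 with 48 groups. The members' median moved from 0.098 to 0.19 with the high power scans, 0.28 over genes measured in all 3 hybridizations (11 members), 0.25 with the length trend removed and 0.22 with both corrections, and ran from 0.098 to 0.23 with 1 hybridization left out. The median of everything fitted moved from -0.0068 to 0.0092, 0.091, 0.018 and 0.0067 in the same order. With 1 hybridization left out it ran from 0.0074 to 0.079. Fewer genes are tested in several of these: 11 members had both values without hybridization 1 or 2, and 23 with the low power scans. All calls numbered 1072, and 633 with the low power scans, 515 over genes in all 3 hybridizations, and 262 to 1057 with 1 hybridization left out. Removing the length trend left 1 member called, ORC2 in place of DUT1, and the cause was not tested. Over everything fitted, 345 of 4170 were called higher in that fit and 392 lower. RFA3 passed only with 48 groups (0.58, adjusted p = 0.0341). Calls ended or gained for DUT1, ORC2, CLN1, POL3, SWI4 and MCM5 are given beside their values. Of members called under some setting, RFA3 ran from -0.23 (length trend removed) to 0.58 and SWI4 from -0.021 (low power scans) to 0.65, and neither was called where its sign turned. The other alternatives (5 scans with the hybridization as random block, median centring, array weights, robust prior, 11 groups) kept the member counts at 1 higher and 0 lower. The robust prior gave the same counts as the reported fit over everything (518 higher and 554 lower), so it is no separate check.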
